A study of Mus musculus with 3 samples.

Results

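Mitochondrial fatty acid oxidation was described in adult lung endothelial cells (ECs) through 10 enzymes of the pathway, taken by gene symbol from a table of 24346 genes. All 10 have a row in the table. The rule takes them by symbol and uses no measured value, but the members were chosen with earlier results of these data known. The data are bulk RNA-seq values of ECs sorted by flow cytometry, freshly isolated from the lungs of wild type C57BL/6J males 6 to 8 weeks old. There is a single group of 3 libraries, named S38, S44 and S52, with no treatment and no second genotype. The animals received an antibody to VE-cadherin by intravital injection, and sorting used antibodies to CD31, CD45 and podoplanin. The labels do not say whether each library came from a separate animal, so the spread between libraries may be technical. Other organs and stages were not analysed here, and a single group allows no comparison of conditions.

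Values are FPKM, the fragments of a gene scaled to its length and to the size of the library, so levels may be set side by side between genes. From the steps between low values, S38 was estimated to hold 37700000 fragments, S44 38900000 and S52 34100000. At these depths a count of 0 allowed at most 0.065 FPKM for any member (3 fragments, counting error only, *Acaa2* in S52). Endothelial identity was checked with 8 genes, all of them at 10 FPKM or above, whose median was 378 (S38), 393 (S44) and 379 FPKM (S52). Their sum was 4757 (S38), 5290 (S44) and 4447 FPKM (S52). Transcripts of other cells were also present, and those of alveolar type 2 cells and platelets were lowest in S52. The summed level of 7 alveolar type 2 genes was 3833 (S38), 3217 (S44) and 779 FPKM (S52), and the 4 platelet genes summed to 1692, 1345 and 38 FPKM. In bulk samples fewer cells of a type and less RNA per cell cannot be told apart.

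Fatty acid oxidation breaks long-chain acyl groups down to acetyl-CoA in the mitochondrial matrix. Carnitine palmitoyltransferases (CPT) carry the acyl group across the mitochondrial membranes, after which each round of the cycle runs through a dehydrogenase, a hydratase, a second dehydrogenase and a thiolase. Electrons of the first dehydrogenase pass through the electron transfer flavoprotein to ubiquinone. In ECs the pathway is known for supplying carbon for nucleotide synthesis in proliferating cells and for redox balance in quiescent ones, and CPT1A is its gatekeeper.

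The sequences before the starts of 6 members are shown for the highest member, for *Cpt1a* and for pairs of members with a feature in common. *Hadha* and *Hadhb*, which encode the α and β subunits of the same enzyme complex, lie head to head on chromosome 5, and *Acadm* and *Etfdh* share a GC-rich word. They are RefSeq sequences of GRCm38.p6 (the mm10 assembly), 5′ to 3′ on the strand of the gene, and end before the first base that RefSeq or the GENCODE M21 basic set gives to the transcript. Promoters were held for 8 of the 10 members. In the sequences of *Cpt1a* (chr19:3323051-3323284, plus strand), *Acadl* (chr1:66863310-66863559, minus strand) and the space between *Hadha* and *Hadhb* (chr5:30155163-30155247, shown on the plus strand, that of *Hadhb*), capitals mark the GC box GGGCGG on either strand. In *Acadm* (chr3:153944644-153944893, minus strand) and *Etfdh* (chr3:79628864-79629017, minus strand) capitals mark GCATGCGC on either strand.
Cpt1a: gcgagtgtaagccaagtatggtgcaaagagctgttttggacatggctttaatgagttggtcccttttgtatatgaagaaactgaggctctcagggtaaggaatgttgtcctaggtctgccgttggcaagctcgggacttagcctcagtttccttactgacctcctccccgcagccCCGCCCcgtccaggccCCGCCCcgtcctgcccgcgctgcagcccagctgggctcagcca
Acadl: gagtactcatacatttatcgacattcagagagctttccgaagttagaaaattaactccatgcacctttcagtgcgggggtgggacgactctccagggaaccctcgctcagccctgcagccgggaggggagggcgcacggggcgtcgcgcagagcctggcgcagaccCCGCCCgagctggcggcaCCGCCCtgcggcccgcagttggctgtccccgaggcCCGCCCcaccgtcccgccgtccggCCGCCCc
Hadha-Hadhb: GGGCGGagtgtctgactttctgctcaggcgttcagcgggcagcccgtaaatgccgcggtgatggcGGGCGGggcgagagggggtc
Acadm: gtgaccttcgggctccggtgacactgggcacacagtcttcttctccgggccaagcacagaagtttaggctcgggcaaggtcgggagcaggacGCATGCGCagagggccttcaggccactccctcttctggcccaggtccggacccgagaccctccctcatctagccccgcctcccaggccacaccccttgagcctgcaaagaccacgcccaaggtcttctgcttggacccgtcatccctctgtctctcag
Etfdh: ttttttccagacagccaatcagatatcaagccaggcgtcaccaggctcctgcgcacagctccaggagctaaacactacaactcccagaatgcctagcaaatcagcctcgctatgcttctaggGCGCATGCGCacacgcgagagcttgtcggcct

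The whole space between the annotated starts of *Hadha* and *Hadhb* is 85 bases, holds 2 GC boxes and is 69.4% G and C. Motifs were counted on both strands in windows of 300 bases, 250 before and 50 after each RefSeq start. The GC box was in 6 of the 8 member windows (*Acadl*, *Cpt1a*, *Cpt2*, *Etfdh*, *Hadha* and *Hadhb*) and in 35.7% of all 32851 windows. The hexamer AGGTCA, which nuclear receptors bind, was in those of *Acadm*, *Acadvl* and *Cpt1a*, against 16.3% of all windows. The longer form TCAAGGTCA, which contains that hexamer, was in none of the 8 and in 0.423% of all, and CCAAT was in those of *Cpt1a* and *Etfdh*, against 37.4%. The word GCATGCGC was chosen after these sequences had been read. It was in the windows of *Acadm* and *Etfdh* and in 2.71% of all windows. A match is a description of the letters only.

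All 10 enzymes were detected, at means from 1.53 FPKM for *Cpt1b* to 68.1 FPKM for *Acadl*. A mean of 10 FPKM or above was reached by 8 of them, against 25.7% of all genes, and the median over the 10 was 34.3 FPKM. The median in the separate libraries was 32.3 (S38), 32.8 (S44) and 31.5 FPKM (S52). The order by mean was *Acadl*, *Hadhb*, *Cpt1a*, *Acaa2*, *Acadvl*, *Hadha*, *Acadm*, *Etfdh*, *Cpt2* and *Cpt1b*. Of its 9 pairs of neighbours, 6 had overlapping library ranges, although within each library *Hadhb* lay above *Cpt1a* and *Acadvl* above *Hadha*. The 3 whose ranges stood apart were at the lower end, where *Etfdh* lay below *Acadm*, *Cpt2* below *Etfdh* and *Cpt1b* below *Cpt2* in every library. No test was run, since 3 paired libraries cannot give an exact two-sided p below 0.25.

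**Figure D1:**
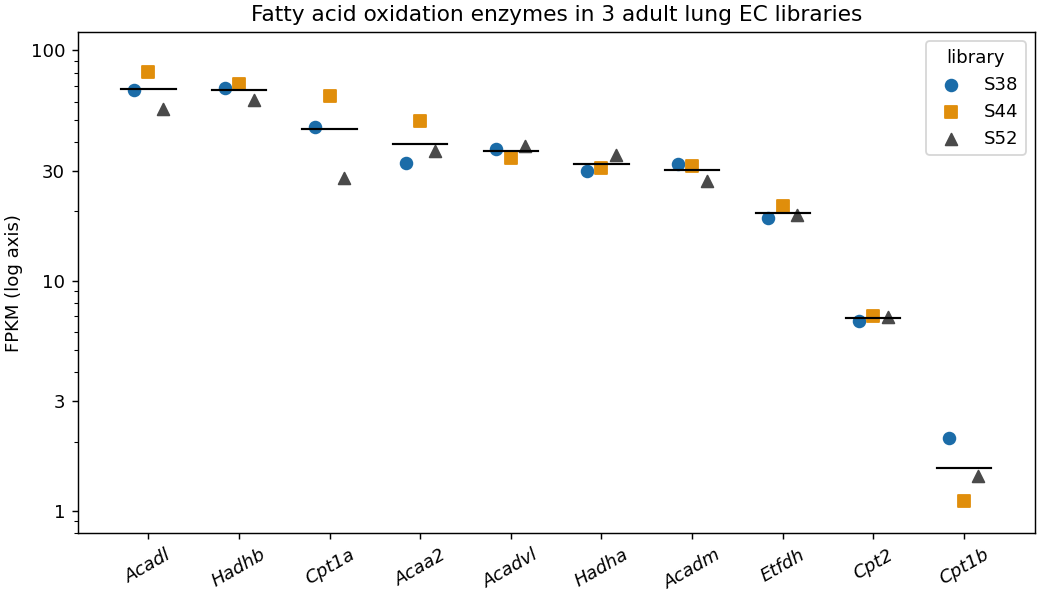
FPKM of the 10 enzymes on a log axis, with 1 point for each of the libraries S38, S44 and S52 and a black line at their mean. The 3 points of *Cpt1a* run from 27.9 to 63.2 FPKM, whereas those of *Cpt2*, in the deposited scaling, lie between 6.65 and 7.0 FPKM.

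Entry into the mitochondrion starts with CPT1, which moves the acyl group from CoA to carnitine at the outer membrane and is inhibited by malonyl-CoA. *Cpt1a*, the liver-type isoform (chromosome 19, 3323285 to 3385733, plus strand, 19 exons), was at 46.3 (S38), 63.2 (S44) and 27.9 FPKM (S52), with a mean of 45.8 ± 17.6 FPKM (SD, n = 3). It was lowest in S52, 2.26-fold below S44 (with libraries rescaled to equal sums S44 was no longer the highest but S52 stayed lowest). The sums include *Snord37*, a small nucleolar RNA gene with the highest mean of all genes, 132032 FPKM, so equal sums depend on such genes. The CV of *Cpt1a* was 38.5%, the highest of the 10 as deposited, and 35.1% with equal sums, where that of *Cpt1b* was 49.2%. *Cpt1b*, the muscle-type isoform (chromosome 15, 89416405 to 89425863, minus strand, 19 exons), was at 2.07, 1.10 and 1.42 FPKM, with a mean of 1.53 ± 0.493 FPKM (SD, n = 3). These values stand for an estimated 215, 117 and 132 fragments, well above the 3 that a count of 0 allows. *Cpt1a* was above *Cpt1b* in every library, by 22.4-fold in S38, 57.3-fold in S44 and 19.7-fold in S52. The mean ratio was 33.1 and fell to 21.0 without S44. *Cpt1c*, a brain-type relative, was at 0.509, 0.165 and 0.0223 FPKM, and its S52 value is under the 0.034 FPKM that a count of 0 allows there.

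The *Cpt1b* values carry an annotation limit. GENCODE lists a further gene, *Gm44502*, which runs from 89416405 to 89429696 on the same strand across *Cpt1b* and its upstream neighbour *Chkb*, a choline kinase gene. It covers 2744 of the 2895 exonic bases of *Cpt1b*, and 93.0% of the read-length windows (51 bases) of the *Cpt1b* transcript recur in it. *Chkb* itself was at 24.7 ± 2.23 FPKM (SD, n = 3). No FPKM value is listed for *Gm44502*. Reads of a transcript that runs on from *Chkb* could therefore have been counted for *Cpt1b*, and the level of *Cpt1b* is uncertain to that extent.

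*Cpt2*, which re-forms the acyl-CoA at the inner membrane (chromosome 4, 107903981 to 107923610, minus strand), was at 6.65 (S38), 7.0 (S44) and 6.96 FPKM (S52), with a mean of 6.87 ± 0.191 FPKM (SD, n = 3). Its CV was 2.78% as deposited, the lowest of the members, but 14.1% with equal sums, where that of *Acaa2* was lower, at 9.14%. The ratio of *Cpt1a* to *Cpt2*, which no scaling of libraries changes, was 6.97, 9.03 and 4.01. Of the other genes of the shuttle, *Slc25a20*, the carnitine-acylcarnitine carrier of the inner membrane, was at 20.9 ± 4.24 FPKM and *Slc22a5*, the plasma membrane carnitine transporter, at 11.5 ± 1.03 FPKM (SD, n = 3 for each). Like *Cpt1a*, *Slc25a20* was highest in S44, at 25.2 FPKM, but it was lowest in S38, at 16.7 FPKM.

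The acyl-CoA dehydrogenases open each round of the cycle and differ in the chain length that they accept. *Acadl*, the long-chain enzyme (chromosome 1, 66830839 to 66863277, minus strand), was at 67.5 (S38), 81.0 (S44) and 55.8 FPKM (S52), with a mean of 68.1 ± 12.6 FPKM (SD, n = 3). *Acadvl*, the very-long-chain enzyme of the inner membrane (chromosome 11, 70010183 to 70015408, minus strand), was at 37.2, 34.0 and 38.3 FPKM, with a mean of 36.5 ± 2.22 FPKM (SD, n = 3). *Acadm*, the medium-chain enzyme (chromosome 3, 153922357 to 153944632, minus strand), was at 32.2, 31.6 and 27.1 FPKM, with a mean of 30.3 ± 2.77 FPKM (SD, n = 3). *Acadl* was above both of the others in every library and made up 49.3%, 55.3% and 46.0% of their sum. *Acadvl* was above *Acadm* in every library. The ratio of *Acadl* to *Acadm* was 2.1 (S38), 2.57 (S44) and 2.06 (S52).

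*Acads*, the short-chain enzyme, was lower than these, at 6.29 ± 0.832 FPKM (SD, n = 3). Among the 7 other acyl-CoA dehydrogenases on the list the highest was *Acadsb*, which acts on branched short chains, at 21.1 ± 3.55 FPKM, and the lowest *Acad10* at 2.73 ± 0.610 FPKM (SD, n = 3 for each). All 7 were at 1 FPKM or above, and their highest mean lay below that of each of the 3 members. The value of *Acadvl* carries a limit too. *Dvl2*, on the opposite strand, overlaps 976 of its 2168 exonic bases, and the libraries were made without strand information. *Dvl2* was at 3.31, 3.01 and 4.16 FPKM, so it was well below *Acadvl* in each library.

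The trifunctional protein completes the next steps for long chains, with hydratase and dehydrogenase activity in its α subunit and thiolase activity in its β subunit. *Hadha*, the α subunit (chromosome 5, 30118304 to 30155162, minus strand), was at 30 (S38), 31.0 (S44) and 35.1 FPKM (S52), with a mean of 32.1 ± 2.68 FPKM (SD, n = 3). *Hadhb*, the β subunit (chromosome 5, 30155248 to 30184593, plus strand), was at 69.0, 71.5 and 61.2 FPKM, with a mean of 67.2 ± 5.38 FPKM (SD, n = 3). *Hadhb* was the higher subunit in all 3 libraries although the genes start 85 bases apart. The ratio of *Hadhb* to *Hadha* was 2.30 (S38), 2.30 (S44) and 1.74 (S52), where *Hadhb* had its lowest and *Hadha* its highest value, the latter only in the deposited scaling and not with libraries rescaled to equal sums. The pseudogenes *Gm13910* and *Gm9108* hold 61.3% and 14.6% of the read-length windows of the *Hadhb* transcript, so reads of *Hadhb* could have been shared with copies elsewhere. For *Hadha* the share of windows found in any other gene was 0.630%.

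*Acaa2*, the matrix thiolase that ends the round for shorter chains (chromosome 18, 74779197 to 74806208, plus strand), was at 32.3 (S38), 49.4 (S44) and 36.5 FPKM (S52), with a mean of 39.4 ± 8.94 FPKM (SD, n = 3). It was highest in S44, with 1.53-fold between its highest and lowest library. None of its windows recurred in another gene, and the same held for *Cpt1a*, *Cpt2*, *Acadl* and *Etfdh*. The other soluble matrix enzymes were at like levels. *Hadh*, the dehydrogenase for short and medium chains, was at 37.4 ± 7.19 FPKM, *Hsd17b10*, a further dehydrogenase, at 36.9 ± 6.12 FPKM and *Echs1*, the short-chain hydratase, at 30.6 ± 4.20 FPKM (SD, n = 3 for each). *Acat1*, the acetoacetyl-CoA thiolase, was the lowest of these 4, at 18.1 ± 1.47 FPKM (SD, n = 3).

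*Etfdh* encodes the oxidoreductase that hands electrons from the flavoprotein to ubiquinone (chromosome 3, 79603788 to 79628863, minus strand). It was at 18.7 (S38), 21.2 (S44) and 19.2 FPKM (S52), with a mean of 19.7 ± 1.31 FPKM (SD, n = 3). The subunits of the flavoprotein that feeds it were higher in each library. *Etfa* was at 30.6, 34.5 and 36.5 FPKM and *Etfb* at 41.5, 51.2 and 60.3 FPKM, so both were lowest in S38 and highest in S52 as deposited, whereas with equal sums both were lowest in S44 and *Etfa* was highest in S38. The ratio of *Etfb* to *Etfdh* was 2.23 (S38), 2.42 (S44) and 3.14 (S52).

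Differences between the libraries were described on log2(FPKM + 1) with a fold of 1.5. Only *Cpt1a* of the 10 enzymes was lower in S52 than in both other libraries by that fold, with log2 differences of -0.71 from S38 and -1.15 from S44. The same was seen for 11.7% of the 11770 genes whose mean reached 1 FPKM, so 1 of 10 is close to the share among all genes. No member was higher in S52 than in both others by that fold, against 3.97% of genes. The highest library was over 1.5-fold above the lowest for *Cpt1a* and *Acaa2*, against 34.2% of genes. With libraries rescaled to equal sums it was so for *Cpt1a* and *Cpt1b*, and *Acaa2* no longer passed, against 52.1% of genes. *Cpt1b* varied by 1.88-fold in FPKM but stayed under the fold, as deposited, once 1 was added to its low values. The median difference of the 10 members was -0.06 from S38 (0.03 with the medians of the libraries made equal) and -0.17 from S44, beside -0.08 and -0.06 over the 11770 genes. S52 was the lowest library for 4 of the 10 and for 46.3% of detected genes.

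**Figure D2:**
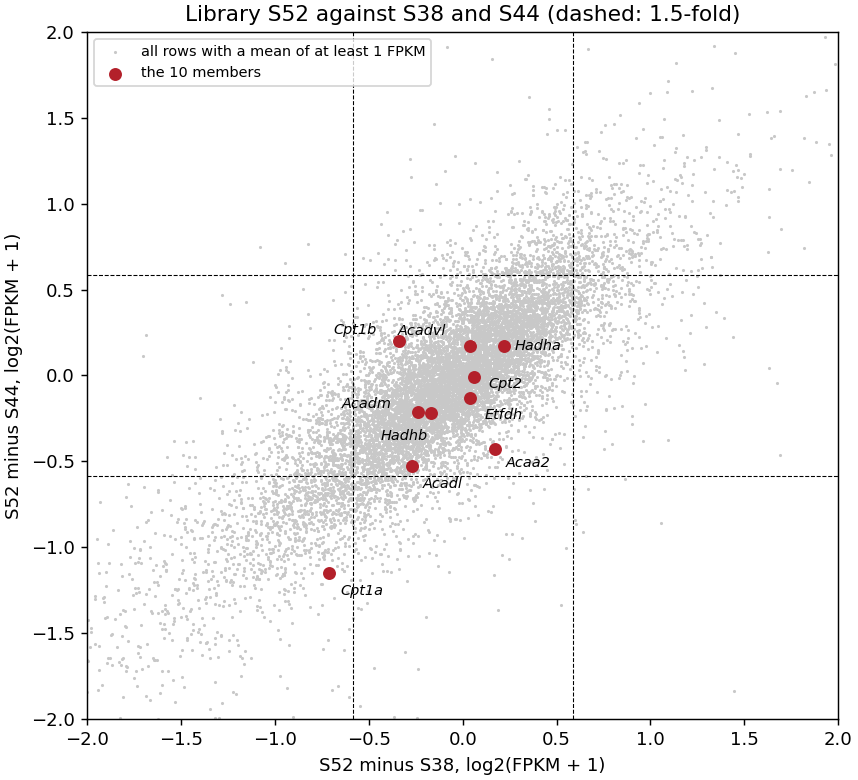
Difference of library S52 from S38 (x axis) and from S44 (y axis) in log2(FPKM + 1), for the 10 enzymes in red and for genes whose mean reached 1 FPKM in grey, within 2 units of 0. Dashed lines mark 1.5-fold, and only *Cpt1a*, at -0.71 and -1.15, lies beyond both lower lines.

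Like *Cpt1a*, markers of several other cells were lowest in S52, as were 46.3% of detected genes. All 7 alveolar type 2 genes were lowest in S52 and below both other libraries by over 1.5-fold, as were all 4 platelet genes. The 5 airway genes summed to 2769 (S38), 2304 (S44) and 402 FPKM (S52), the 6 alveolar macrophage genes to 82.5, 63.0 and 19.9 FPKM, and the 7 heart muscle genes to 52, 35.9 and 15.7 FPKM. The sums of these lists were highest in S38, and *Cpt1a* was highest in S44 in the deposited scaling. Single genes of a list differed in this. Of the macrophage genes, *Chil3*, the highest, was at 55.7, 26.1 and 3.28 FPKM and *Cd68* at 17.0, 27.4 and 16.7 FPKM. Endothelial genes also differed. Of the 8, 4 had over 1.5-fold between their highest and lowest library, beside 34.2% of detected genes. Only *Kdr*, at 380, 360 and 237 FPKM, was below both other libraries in S52 by that fold, beside 11.7% of detected genes. *Cldn5*, a tight junction gene, was at 1486, 1732 and 1029 FPKM, in the same order of libraries as *Cpt1a*, while *Emcn* was at 156, 181 and 267 FPKM. The part of any of these cells in the *Cpt1a* values was not tested.

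For *Cpt1b*, the defining markers of muscle and fat were examined. The 6 skeletal muscle genes summed to 4.58 (S38), 4.13 (S44) and 5.88 FPKM (S52). Their lowest by mean, *Myh4*, was listed at 0 in S38 and S44 and at 0.00500 FPKM in S52. Their highest, *Mylpf*, was at 2.86, 2.38 and 2.12 FPKM. *Acta1* went the other way, at 1.05, 0.970 and 3.64 FPKM, and was highest in S52. The 6 adipocyte genes summed to 2.30, 1.22 and 0.793 FPKM. Their lowest, *Ucp1*, was listed at 0 in all 3 libraries, and their highest by mean, *Cidec*, was at 2.06, 0.814 and 0 FPKM. *Adipoq* was at 0.147, 0 and 0.793 FPKM, so it was highest in S52 and alone made up the sum there. Among the 7 heart muscle genes given above, *Myl4*, the highest, was at 17.7, 15.7 and 13.8 FPKM, and *Myl7* was at 20.4 and 11.7 FPKM and listed at 0 in S52. The 4 smooth muscle genes summed to 131, 70.7 and 122 FPKM, in the same order of libraries as *Cpt1b*. Their median, at 14.3, 9.66 and 15.7 FPKM, was highest in S52 and so not in that order. The part of any of these cells in its level was not tested.

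**Figure D3:**
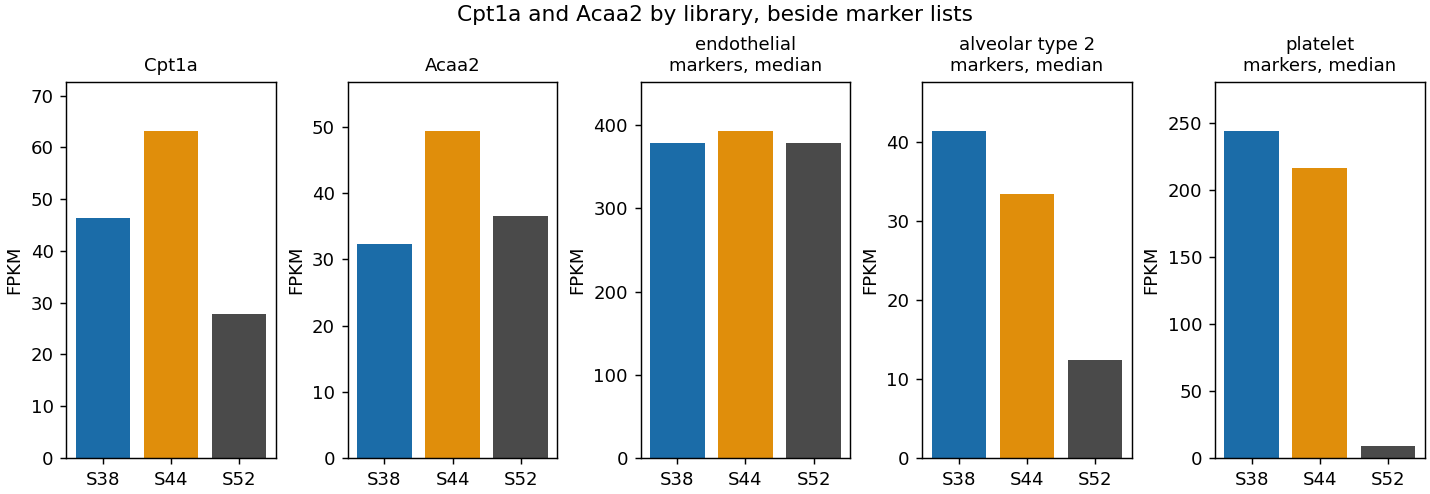
Bars give FPKM of *Cpt1a* and *Acaa2* and the median FPKM of the endothelial, alveolar type 2 and platelet marker lists in S38, S44 and S52, each on its own axis from 0. The S52 bar is the lowest for *Cpt1a*, for alveolar type 2 genes and for platelet genes, whereas the endothelial median stayed between 378 and 393 FPKM.

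Around the 10 members, 75 further genes of fatty acid metabolism were listed by step. Of these, 65 had a mean of at least 1 FPKM and 39 reached 10 FPKM, with a median of 11.5 FPKM, beside 48.3% and 25.7% of all genes. Below both other libraries by over 1.5-fold in S52 were 9 of the 75, and 1 was above them. Over all 24346 genes, 1610 (6.61%) were below and 629 above, and over detected genes 11.7% and 3.97%. The 75 include 10 genes with a mean under 1 FPKM. *Bdh1*, the 1 above, and *Ppargc1a*, 1 of the 9 below, are among these 10. Acyl-CoA synthetases, which activate fatty acids before the CPT step, were led by *Acsl5* at 60.8 ± 8.72 FPKM (SD, n = 3). *Acsl1* was at 9.14 ± 0.629 FPKM (SD, n = 3), and *Acsl6* was listed at 0 in every library. The enzymes for unsaturated chains had their highest gene in *Ech1*, a dienoyl-CoA isomerase, at 111 ± 8.55 FPKM, and their lowest in *Decr1*, the dienoyl-CoA reductase, at 16.0 ± 2.12 FPKM (SD, n = 3 for each). In the propionyl-CoA branch, *Mcee* was highest at 34.1 ± 9.33 FPKM and *Pcca* lowest at 9.39 ± 1.66 FPKM (SD, n = 3 for each).

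Peroxisomal oxidation, which shortens very long chains, had 8 of its 11 genes at 1 FPKM or above and a median of 12.3 FPKM. Its highest gene was *Scp2*, at 48.7 ± 8.19 FPKM (SD, n = 3), and its lowest *Acox2*, at 0.678 FPKM (S38), 0.0782 FPKM (S44) and 0 in S52. *Bdh1*, the lowest of the ketone body genes, was at 0, 0.207 and 1.19 FPKM. Malonyl-CoA control had no gene at a mean of 10 FPKM, with the decarboxylase *Mlycd* at 9.68 ± 2.13 FPKM and *Acacb*, a carboxylase that makes malonyl-CoA, at 4.05 ± 0.493 FPKM (SD, n = 3 for each).

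Nuclear receptors and coactivators known to control these enzymes ran from under 0.1 FPKM to 12.9 FPKM. *Ppara*, the receptor best known for inducing fatty acid oxidation in liver, was at 0.190 FPKM (S38), 0.149 FPKM (S44) and 0 in S52. *Ppargc1a*, a coactivator of mitochondrial genes, was at 0.922, 0.701 and 0.0838 FPKM, and *Ppargc1b* was under 0.1 FPKM in each library. *Ppard* was at 6.95 ± 0.766 FPKM, *Esrra* at 8.37 ± 0.694 FPKM, *Rxra* at 12.9 ± 1.76 FPKM and *Pparg* at 1.72 ± 0.523 FPKM (SD, n = 3 for each). *Ppard* and *Esrra* were thus above *Ppara* in every library. Genes that PPARs are known to induce were spread from *Cd36*, the fatty acid translocase, at 1505 (S38), 1517 (S44) and 1507 FPKM (S52), down to *Ucp3*, at or below 0.0112 FPKM. *Ucp2* was at 174 ± 14.2 FPKM (SD, n = 3). *Pdk4*, the kinase that inhibits pyruvate dehydrogenase, was at 3.70, 2.47 and 1.32 FPKM, and *Fabp4*, a fatty acid binding protein gene, at 153, 70.2 and 24.0 FPKM, so both were lowest in S52.

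**Figure D4:**
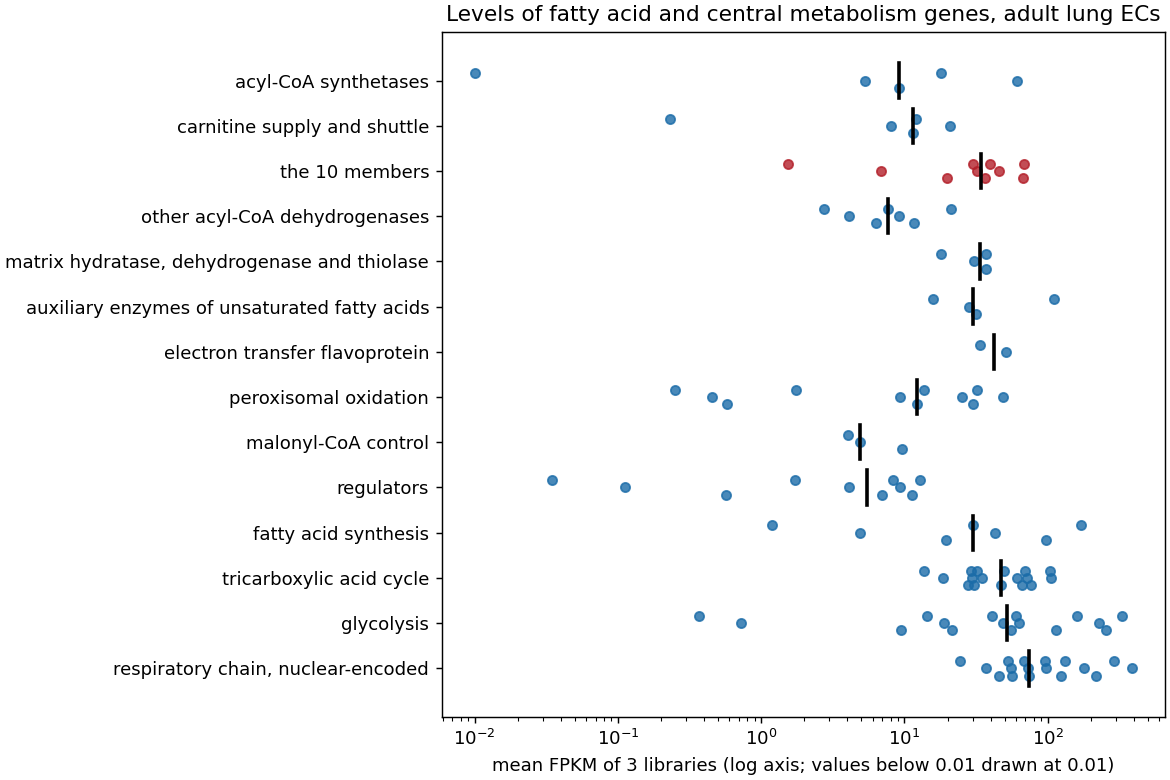
Each point is the mean FPKM of a gene over the 3 libraries on a log axis, by list, with the 10 enzymes in red and a black line at the median of each list. The median of the enzymes, 34.3 FPKM, lies between those of the other acyl-CoA dehydrogenases (7.63 FPKM) and the nuclear-encoded respiratory chain (74.6 FPKM).

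Set beside other central metabolism, the members were lower than the respiratory chain. The median of 17 nuclear-encoded respiratory chain genes was 81.3 (S38), 76.6 (S44) and 78.7 FPKM (S52), and the ratio of the members' median to it, taken on means, was 0.460 (0.282 on the mean of log2(FPKM + 1)). Its genes ran from *Ndufs1* at 24.4 ± 2.05 FPKM to *Atp5b* at 386 ± 41.3 FPKM (SD, n = 3 for each). The tricarboxylic acid cycle, which oxidises the acetyl-CoA, had a median of 47.1 FPKM over 17 genes, from *Suclg2* at 13.6 ± 1.02 FPKM to *Mdh2* at 105 ± 11.4 FPKM (SD, n = 3 for each). Glycolysis had a median of 52 FPKM over 16 genes, from *Aldoc* at 0.369 ± 0.211 FPKM to *Aldoa* at 328 ± 5.95 FPKM (SD, n = 3 for each). Genes of mitochondrial import and channels had a median of 32.1 FPKM, near that of the members, from *Tfam* at 6.03 ± 1.54 FPKM to *Vdac2* at 111 ± 7.39 FPKM (SD, n = 3 for each). These are medians over different genes of the same libraries and were not tested against each other.

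The genes closest to *Cpt1a* in level and pattern were *Uba7*, *Lurap1l* and *Bin1*, judged by the largest difference in log2(FPKM + 1) over the 3 libraries, which was 0.204, 0.206 and 0.236. *Uba7* was at 43.3 (S38), 54.7 (S44) and 26.7 FPKM (S52). No gene came within 0.2 of *Cpt1a*, whereas 29 did so for *Acadl*, the closest being *Tspan14* at 0.072, *Nhlrc2* at 0.095 and *M6pr* at 0.096. With 3 libraries such likeness is a description only.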

How the data were processed

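Poly-A selected RNA of 3 sorted adult lung EC libraries was sequenced without strand information as paired reads of 51 bases. The table that the authors deposited gives FPKM by gene symbol (mm10), 1 column per library, and was used unchanged. The submitters' processing notes name bcl2fastq 2.17, FastQC 0.11.5, Trimmomatic 0.36, TopHat2 2.1.0 and Cufflinks 2.2.1, whereas the paper's methods describe another aligner and read counting for its own tests. Which of them made the FPKM values, and the gene annotation, are not given in the sources used here.

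Means, SDs, ranks and medians were computed on FPKM, and differences between libraries on log2(FPKM + 1), which understates changes of low genes. FPKM values are not counts, so count models were not used. The depth estimate used 7077 genes with 1 basic transcript of 800 to 4000 bases and the step at which low values become whole fragments, in a search checked on simulated data. Of 275, 373 and 189 low values in S38, S44 and S52, 78.5%, 77.2% and 75.1% lay within 0.15 of a whole number. The step was searched for on these values, so the shares are descriptive. Limits for a count of 0 use 3 fragments at this depth and at the longest basic transcript. Positions, overlaps and windows come from GENCODE M21 (GRCm38), and motifs from RefSeq promoters. The members and lists were chosen with earlier results of these data known. Genes named from each list are its highest and lowest by mean and a fixed set of shuttle, flavoprotein, receptor and PPAR target genes. The highest gene of 1 list is not reported here. *Chkb*, *Dvl2*, *Gm44502*, *Gm13910*, *Gm9108*, *Hsd17b10*, *Echs1*, *Emcn*, *Kdr*, *Cd68*, *Myh4*, *Acta1*, *Myl7*, *Ucp1*, *Adipoq* and *Scd1* were added after their values were seen. Analyses used Python 3.11.15, numpy 2.4.6, pandas 2.3.3 and matplotlib 3.10.9.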

Additional observations from a re-analysis of the deposited data

How the results depend on the processing

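Limits were the spread between libraries for levels and ratios, 1.5 times for counts and percentages, and a fixed margin for log2 differences. Of 140 recomputed values, 123 stayed within these limits, and 1 changed sign. That was the median difference of the members between S52 and S38, -0.06 as deposited and 0.03 with the medians of the libraries made equal. Rescaling each library to a sum of 1000000, which shifts log2 values by -0.21 in S38, -0.68 in S44 and -0.51 in S52, lowered the median level of the members from 34.3 to 25.1 FPKM. Under it *Cpt1a* was at 40.1, 39.4 and 19.7 FPKM, so S44 was no longer its highest library, and the difference of *Hadha* between S52 and S38 turned from 0.22 to -0.07 and that of *Acaa2* from 0.17 to -0.12. With a fold of 2 the number of members lower in S52 than in both other libraries was 0, in place of 1, and the share of all genes 4.83% in place of 11.7%. The differences of *Cpt1a* were unchanged and only the threshold moved. Leaving out a library gave member medians from 33.5 to 34.6 FPKM, 35 to 42 pairs of members whose ranges stood apart in place of 34 of 45, 63 to 65 detected pathway genes, and ratios of the members to the respiratory chain from 0.427 to 0.464 in place of 0.460. On the mean of log2(FPKM + 1) that ratio was 0.282. Without S52 no difference of S52 exists, and no value was given. No other cause of these changes was tested. Depth limits genes near the 3-fragment level, such as *Cpt1c* and *Ppara* in S52.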

Other observations

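The fatty acid synthesis genes, listed as the opposing pathway, were all lowest in S52 as deposited (6 of 7 with libraries rescaled to equal sums), beside 46.3% of detected genes. *Scd1*, the stearoyl-CoA desaturase, was at 56.2 (S38), 23.7 (S44) and 10.4 FPKM (S52), and *Elovl6*, a fatty acid elongase, at 1.74, 1.49 and 0.365 FPKM. *Elovl5*, the highest gene of the list, was at 162, 207 and 142 FPKM, with S44 as its highest library as deposited and S38 with equal sums. Of the 7 genes 3 were below both other libraries by over 1.5-fold, beside 1 of the 10 oxidation enzymes and 11.7% of detected genes. Alveolar type 2 cells also make these enzymes, and the 7 alveolar type 2 genes given above were lowest in S52 too. Their part in the synthesis genes was not tested.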
